A study of Mus musculus with 8 samples.

Results

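The 4 genes described here, Igfbp3, Igfbp4, Igfbp5 and Igfbp7, encode secreted insulin-like growth factor (IGF) binding proteins and were chosen by name from the 28692 genes of the count matrix. Their transcripts were followed across blood (BEC) and lymphatic (LEC) endothelial cells of a mouse melanoma and across marker-defined subsets of each. Tumors grew from MT-ret melanoma fragments placed on the ventral flank of 10 mice of strain C57BL/6N. From these, 10000 cells of each endothelial type were sorted by fluorescence and read by droplet single-cell RNA sequencing, which counts molecules by their identifier tags (UMIs). Both groups are untreated tumor endothelium of this 1 strain and model, and no endothelium of normal tissue is among them. The labels list 4 libraries per sort, but the columns name only the sort, so cells of the pooled mice cannot be traced to a library or animal. Each sort is therefore 1 sample, and no difference below has a replicate check or a p-value.

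Classical IGF binding proteins hold IGF1 and IGF2 outside the cell, and so lengthen the life of these ligands while keeping them from the receptor Igf1r. Proteases such as Pappa cut the binding proteins and free the ligand, and stanniocalcins block Pappa. Igfbp3 is the main carrier of IGF in blood and a known target of hypoxia and transforming growth factor signals. Igfbp4 is a soluble binding protein and the best-known substrate of Pappa, and Igfbp5 also attaches to the extracellular matrix. Igfbp7 binds IGF weakly, is deposited in vascular basement membrane and is a ligand of the endothelial receptor Cd93.

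The genes lie apart in the genome. In the GENCODE M21 annotation of GRCm38, Igfbp3 spans chr11:7206086-7213923 on the minus strand and Igfbp4 chr11:99041244-99054392 on the plus strand. Igfbp5 spans chr1:72857932-72874884 and Igfbp7 chr5:77349240-77408041, both on the minus strand. Because Igfbp3 and Igfbp7 turned out to vary together in blood endothelium, the 250 bases upstream of their RefSeq start sites (GRCm38.p6, both minus strand, read 5′ to 3′ along the gene) are shown. Capitals mark the core of the hypoxia response element, ACGTG or GCGTG on either strand, and a TATA box, TATAAA or TATATA on the coding strand.
Igfbp3, chr11:7213924-7214173: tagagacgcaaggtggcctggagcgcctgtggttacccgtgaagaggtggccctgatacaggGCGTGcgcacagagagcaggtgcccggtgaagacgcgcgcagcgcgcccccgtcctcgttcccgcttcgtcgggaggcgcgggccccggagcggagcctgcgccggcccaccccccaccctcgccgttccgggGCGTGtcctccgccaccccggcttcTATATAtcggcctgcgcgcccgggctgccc
Igfbp7, chr5:77408046-77408295: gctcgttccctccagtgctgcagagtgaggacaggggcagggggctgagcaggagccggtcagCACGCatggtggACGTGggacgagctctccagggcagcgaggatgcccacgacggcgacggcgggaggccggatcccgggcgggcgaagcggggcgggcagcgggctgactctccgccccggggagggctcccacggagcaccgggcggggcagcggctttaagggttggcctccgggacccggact
The Igfbp3 sequence held 2 hypoxia cores, at -188 and -55 from the start site, and 1 TATA box. The Igfbp7 sequence held 2 hypoxia cores, at -187 and -175, and no TATA box. Neither motif is rare in such windows, since 38.6% of all 32851 RefSeq promoters of this length held at least 1 hypoxia core (16.7% at least 2) and 11.5% a TATA box. The window upstream of Igfbp4 held 0 hypoxia cores and 1 TATA box, and that of Igfbp5 held 0 of either. A match is a description of the letters, not of a bound site. GC content was 73.2% for Igfbp3, 69.2% for Igfbp4, 58.8% for Igfbp5 and 74.0% for Igfbp7, against a median of 52.4% over all promoters.

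The BEC sort held 3228 cells with a median of 19416 UMIs (6968 to 99171) and the LEC sort 4407 cells with a median of 11000 (5288 to 49210), 71304111 and 59273049 UMIs in all. A class was given to each cell from marker lists after every cell had been thinned to 5000 UMIs. BEC-lineage cells (such as Flt1, Plvap and Cd93) made up 3115 of the BEC sort (96.5%), with a median of 9 of 10 markers of their own list. LEC-lineage cells (such as Lyve1, Prox1 and Pdpn) made up 3577 of the LEC sort (81.2%), with a median of 5 of 8. These are the own-lineage cells on which most values below rest. The LEC sort also held 487 melanocytic cells (11.1%), 147 BEC-lineage cells (3.34%) and 156 unassigned cells, and the BEC sort 13 LEC-lineage, 57 mural and 36 melanocytic cells. LEC-lineage cells carried a median of 2 of the 10 BEC markers, and 285 of them sat at the required minimum of 3 own markers. In all, 34 barcodes occurred in both sorts. Leaving those cells out moved none of the 4 ratios between the sorts beyond its counting interval.

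Between the sorts, own-lineage cells differed by more than 10-fold in Igfbp3, Igfbp5 and Igfbp7 and by less than 2-fold in Igfbp4. Igfbp3 and Igfbp7 were higher in blood endothelium, also when both lineages were taken from the LEC sort. Igfbp5 was higher in lymphatic endothelium between the sorts. Inside the LEC sort its summed level was not higher in the lymphatic lineage. A larger share of LEC-lineage than of BEC-lineage cells there had an Igfbp5 UMI after thinning (38.4% against 19.0%). Levels are in CPM, the UMIs of a gene per 1000000 UMIs of the summed cells, with exact 95% Poisson intervals, and ratios have exact binomial intervals. Both cover counting error only. As background, among genes at 50 CPM or more in either sort, 10.5% favoured BEC by 2-fold or more in own-lineage cells and 10.0% favoured LEC. Over all sorted cells the shares were 9.91% and 9.88%. These shares are at 2-fold, and no share of genes beyond 10-fold is given.

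Igfbp3 was at 5779 CPM in BEC-lineage cells of the BEC sort (5761 to 5797) and at 110 CPM in LEC-lineage cells of the LEC sort (106 to 113). It was 52.8-fold higher in blood endothelium (51.3 to 54.3). Over all sorted cells the levels were 5638 and 283 CPM and the fold 19.9. The 147 BEC-lineage cells of the LEC sort, 3.34% of its cells, supplied 10939 of its 16760 Igfbp3 UMIs.

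Igfbp7 was at 20145 CPM in BEC-lineage cells (20111 to 20178) and at 1000 CPM in LEC-lineage cells (990 to 1009). It was 20.2-fold higher in blood endothelium (19.96 to 20.34), and 13.7-fold higher over all sorted cells (19779 against 1439 CPM). Every BEC-lineage cell held at least 1 Igfbp7 UMI after thinning, with a median of 96 and a range of 1 to 403 UMIs of 5000.

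Igfbp5 had the opposite distribution. It was at 562 CPM in LEC-lineage cells (555 to 569) and at 33.6 CPM in BEC-lineage cells (32.2 to 35.0), 16.8-fold higher in lymphatic endothelium (16.1 to 17.5). The levels over all sorted cells were 485 and 35.5 CPM. The low level in blood endothelium came from few cells, as 214 of 3115 held all of it and the 1% of cells with most UMIs held 68.2%. Without that 1% of cells in each sort the ratio between the lineages was 45.6.

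Igfbp4 differed least. It was at 573 CPM in BEC-lineage cells (567 to 579) and at 319 CPM in LEC-lineage cells (314 to 324), 1.79-fold higher in blood endothelium (1.76 to 1.83). The ratio crossed 2-fold with median-of-ratios size factors, another scaling of the sums (LEC over BEC 0.493), and with LEC-lineage and BEC-lineage cells limited to at most 1 marker of the other lineage (0.497).

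Other classes of 36 or more cells, with LEC-lineage cells of the BEC sort, were set in order of level. For Igfbp3 the order ran from BEC-lineage cells of the BEC sort through BEC-lineage cells of the LEC sort (4118 CPM), mural cells of the BEC sort (2836 CPM), melanocytic cells of the BEC sort (1331 CPM) and LEC-lineage cells of the BEC sort (431 CPM, 344 to 533) to LEC-lineage cells and melanocytic cells of the LEC sort (110 and 56.4 CPM), with the unassigned cells of the LEC sort (178 CPM) above these last 2. Few cells carried the mural value, as 1 cell held 15.4% of its UMIs and the top 10% of cells 58.5%, and the thinned median was 3 UMIs against 25 in BEC-lineage cells. Igfbp7 stood at 16561 CPM in mural and 5389 CPM in melanocytic cells of the BEC sort, and at 363 CPM in melanocytic cells of the LEC sort. For Igfbp4, the intervals of mural cells of the BEC sort (342 CPM, 309 to 379) and of LEC-lineage cells of that sort (308 CPM, 235 to 396) took in the LEC-lineage level of 319 CPM, so these do not differ beyond counting error. Igfbp4 was at 166 and 100.1 CPM in melanocytic cells of the BEC and LEC sorts, and Igfbp5 at 48.3 and 147 CPM. The summed Igfbp3 and Igfbp7 levels of melanocytic cells were thus higher in the BEC sort than in the LEC sort. Few of the 36 cells carried them, as the top 10% of cells held 51.3% of the Igfbp3 and 46.3% of the Igfbp7 UMIs. The thinned medians were 2 and 7 UMIs and the maxima 54 and 206. A cell with 2 melanocytic markers was classed outside the BEC lineage however many BEC markers it held. The part of blood endothelial RNA in these levels was not tested. The 156 unassigned cells of the LEC sort had Igfbp4 at 154, Igfbp5 at 154 and Igfbp7 at 667 CPM.

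**Figure D1:**
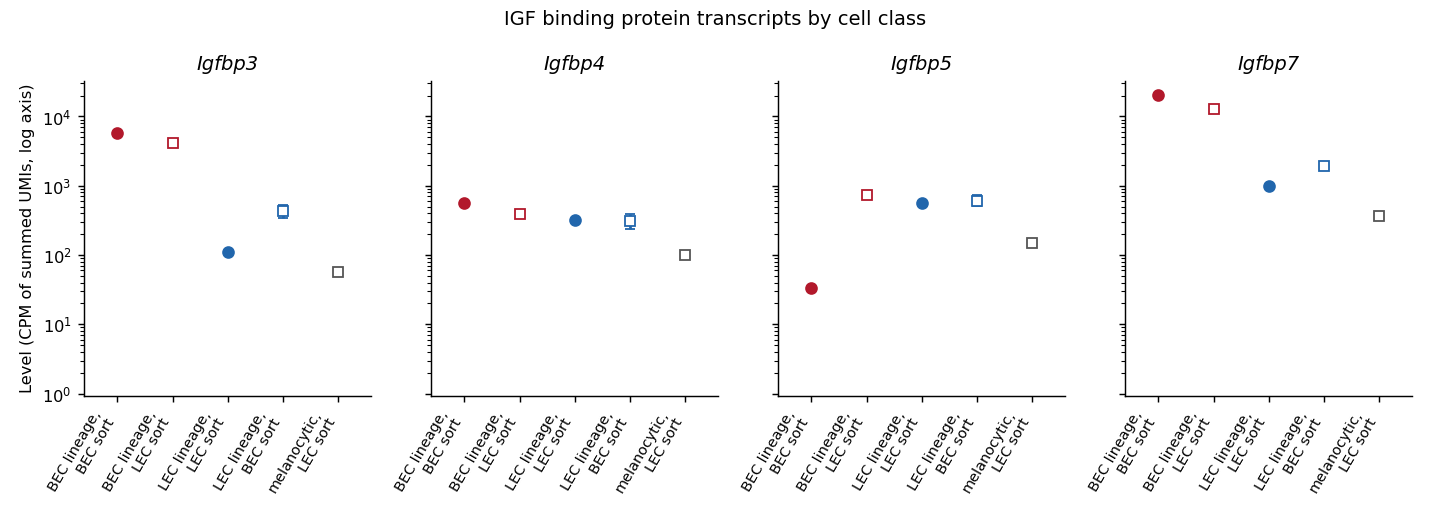
Level of each gene (CPM of summed UMIs, log axis) in BEC-lineage and LEC-lineage cells of both sorts and in melanocytic cells of the LEC sort; filled circles are own-lineage cells, open squares other classes, and bars are 95% Poisson intervals, often smaller than the symbol. Igfbp3 (5779 against 110 CPM) and Igfbp7 (20145 against 1000 CPM) sit higher in the BEC lineage whichever sort the cells came from, while Igfbp5 is lowest in BEC-lineage cells of the BEC sort (33.6 CPM).

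Cells of the other lineage inside a sort went through the same sort as the cells they are compared with. Whether they came from the same libraries in like shares is not known. Inside the LEC sort, the level of Igfbp3 was 4118 CPM in the 147 BEC-lineage cells and 110 CPM in the 3577 LEC-lineage cells, 37.6-fold higher (36.3 to 38.9). Igfbp7 was at 12933 against 1000 CPM, 12.9-fold higher (12.8 to 13.1). There, 7.59% of genes favoured BEC-lineage cells by 2-fold or more and 6.07% LEC-lineage cells (8.23% for LEC and 7.93% for BEC at a minimum of 10 CPM). Igfbp4 was at 390 against 319 CPM, 1.22-fold higher (1.15 to 1.30).

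Igfbp5 did not divide the lineages within the LEC sort by its summed level, but the share of cells with a UMI differed. Its level was 739 CPM in the BEC-lineage cells and 562 CPM in the LEC-lineage cells, 1.31-fold higher in the former (1.26 to 1.38). A single BEC-lineage cell held 34.3% of the Igfbp5 UMIs of its class, and the top 10% of cells held 92.6%. Without the 1% of cells with most Igfbp5 in each class the ratio of LEC to BEC lineage was 1.0002. Fewer of these BEC-lineage cells had an Igfbp5 UMI after thinning, 28 of 147 (19.0%) against 38.4% of LEC-lineage cells. They also carried LEC markers at a summed 1003 CPM, compared with 64.0 CPM in BEC-lineage cells of the BEC sort and 5507 CPM in LEC-lineage cells; the part of this in the Igfbp5 level was not tested. Among the 13 LEC-lineage cells of the BEC sort, Igfbp5 was at 610 CPM (506 to 730), but 3 cells held all of it and 1 cell 72.3%. Those 13 cells had Igfbp3 at 431 CPM, Igfbp4 at 308 CPM and Igfbp7 at 1913 CPM.

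Per cell, the genes differed in how evenly they were spread. After thinning, an Igfbp3 UMI was found in 94.8% of BEC-lineage cells (93.9 to 95.5%, Clopper-Pearson) and 19.7% of LEC-lineage cells (18.36 to 20.99%). The quartiles of BEC-lineage cells were 5 and 48 Igfbp3 UMIs around a median of 25, with a maximum of 174. For Igfbp4 the shares were 81.7% and 49.8%, with medians of 2 and 0 UMIs. For Igfbp5 they were 4.01% and 38.4%. For Igfbp7 they were 100% and 73.2%, with medians of 96 and 3 UMIs. Without thinning, the shares of LEC-lineage cells with a UMI were 26.2% for Igfbp3, 58.4% for Igfbp4, 43.1% for Igfbp5 and 80.0% for Igfbp7, and those of BEC-lineage cells 99.6%, 92.9%, 6.87% and 100%.

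Free RNA in droplets gives UMIs to cells that do not express a gene. Melanocytic cells of the LEC sort (median 16680 UMIs before thinning, against 10551 in LEC-lineage cells) had an Igfbp3 UMI in 9.45%, an Igfbp4 UMI in 27.9%, an Igfbp5 UMI in 22.4% and an Igfbp7 UMI in 40.5% after thinning. The LEC-lineage share was above the melanocytic share for each of the 4 genes. In the BEC sort, 91.2% of mural, 83.3% of melanocytic and 76.9% of the 13 LEC-lineage cells had an Igfbp3 UMI after thinning. For Igfbp7 these shares were 100%, 97.2% and 100%. There, a UMI of either gene thus did little to separate BEC-lineage cells from other classes. The level in own-lineage LEC cells, as a percentage of that in own-lineage BEC cells, was 1.90% for Igfbp3 and 4.96% for Igfbp7. For other genes of blood endothelium, chosen after the values were seen, it was 0.184% for the apelin receptor gene Aplnr, 0.630% for the proteoglycan gene Esm1, 1.005% for Cd93 and 4.89% for the lipase anchor gene Gpihbp1. Esm1 was at 20.3 CPM in the 703 LEC-lineage cells with an Igfbp3 UMI and at 7.52 CPM in those without. It was at 67.8 CPM in the 106 with 5 or more Igfbp3 UMIs after thinning, which held 39.9% of the Igfbp3 UMIs of LEC-lineage cells. The summed BEC markers were at 1297, 1590 and 1194 CPM in these sets of cells in turn. Much of that sum was Plvap, at 846 of 1531 CPM over all LEC-lineage cells. The part of blood endothelial RNA in the lymphatic Igfbp3 level was not tested.

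**Figure D2:**
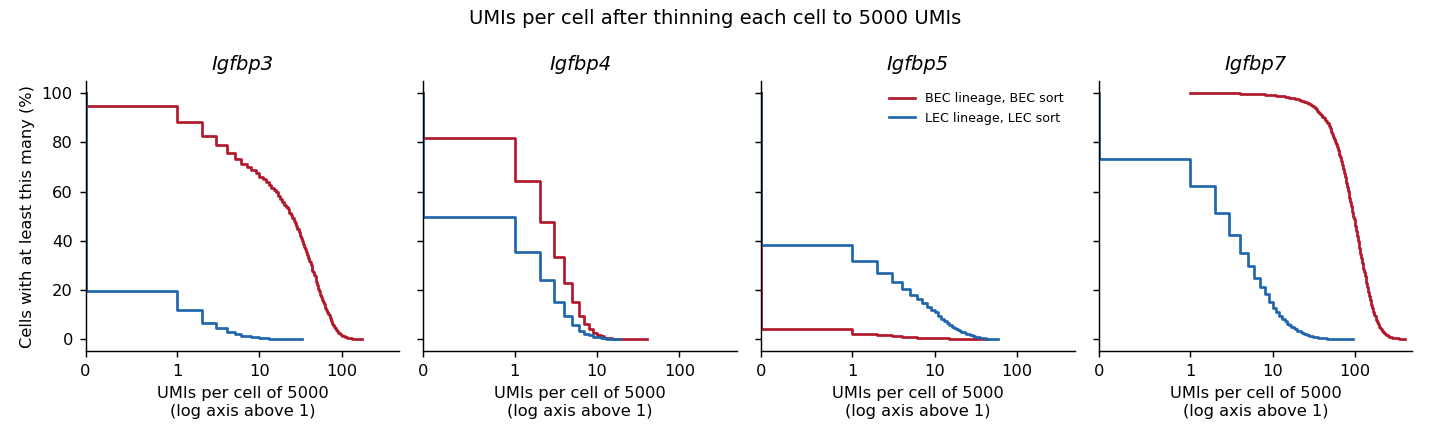
Share of own-lineage cells (%) with at least a given number of UMIs of each gene after every cell was thinned to 5000 UMIs (horizontal axis linear to 1, then log); red lines are the 3115 BEC-lineage cells and blue lines the 3577 LEC-lineage cells. For Igfbp7 the red line lies far to the right (medians of 96 and 3 UMIs), for Igfbp4 the lines are closer (medians of 2 and 0), and for Igfbp5 the blue line lies above the red (38.4% against 4.01% of cells with a UMI).

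Within each sort, own-lineage cells were ranked by the mean scaled expression of a marker list, and the top 10% formed a gate, 312 of 3115 BEC and 358 of 3577 LEC. A gate is a range of a score and not a cell type, gates overlap, and no Igfbp gene entered any of the 10 lists per sort. The gates were nevertheless chosen with earlier results of these data known. Of 40 pairs of gene and gate, 7 differed at least 2-fold from the remaining cells in BEC and 8 in LEC. All 8 in LEC but only 4 in BEC reached 50 CPM in the gate or outside it, the other 3 being Igfbp5 in the tip, capillary and hypoxia gates. At 50 CPM or more, 2 pairs in BEC and 3 in LEC stayed at least 2-fold apart under every alternative run, and so did Igfbp5 in the tip gate, which rests on 49 UMIs. As background, the shares of genes at 50 CPM or more that were at least 2-fold higher and lower in a gate are given beside each result. For the blood gates not covered there they were 2.86% and 1.78% (arterial), 1.26% and 0.631% (interferon) and 2.87% and 0.462% (immediate-early). The shares higher in the gate were 5.28% for venous, 2.65% for tip, 0.885% for capillary, 1.92% for hypoxia and 6.66% for cycling, and the shares lower were 1.69% for Npr3 Vegfc Dkk2 and 1.97% for Aplnr Ramp3. For the lymphatic gates the shares higher and lower were 0.483% and 0.755% (valve), 1.84% and 0.0306% (interferon), 0.919% and 0.613% (immediate-early) and 4.18% and 0.589% (cycling). A further 0.541% were higher in the Cd24a Scn3a gate, 2.73% in the inflamed gate, and 1.45% lower in the collecting and 2.97% in the hypoxia gate.

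In blood endothelium, Igfbp3 was lowest in the venous gate and highest in the gate of Npr3, Vegfc and Dkk2, which are 2 separate scores. In the venous gate (Ackr1, Selp, Sele, Vwf and other venous and adhesion genes) Igfbp3 was at 834 CPM against 6287 CPM in the remaining cells, 7.54-fold lower (7.34 to 7.75). The background share of genes at least 2-fold lower there was 4.56%. Along the venous score it went from 6735 CPM in the bottom 50% of cells and 6376 CPM in the 20 to 50% band to 3789, 1319 and 349 CPM in the 10 to 20%, 5 to 10% and top 5% bands. In the gate of Npr3 (a natriuretic peptide clearance receptor), Vegfc (a lymphangiogenic growth factor) and Dkk2 (a secreted Wnt modulator) it was at 11841 against 5157 CPM, 2.30-fold higher (2.28 to 2.31), where 1.03% of genes were at least 2-fold higher. Along that score it went from 3393 CPM in the bottom 50% to 12308 CPM in the top 5%. The 2 gates shared 5 cells.

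Other blood endothelial gates held intermediate Igfbp3. It was at 8743 CPM in the arterial gate (1.59-fold above the rest), 8140 CPM in the hypoxia gate (1.49-fold) and 8128 CPM in the tip gate (1.48-fold), and the last of these shared 155 of its 312 cells with the hypoxia gate. The arterial gate shared 86 of its cells (27.6%) with the Npr3 Vegfc Dkk2 gate. Igfbp3 was at 6949 CPM in the interferon gate, 6001 CPM in the capillary gate, 5058 CPM in the Aplnr Ramp3 gate and 4580 CPM in the immediate-early gate. The capillary ratio of 1.04 changed direction over the alternatives, from 0.791 to 1.18. Its list joins Gpihbp1 and Fabp4, whose correlations with Igfbp3, given below, have opposite signs. In the cycling gate Igfbp3 was at 3086 against 6185 CPM, 2.004-fold lower (1.98 to 2.03, background 1.16%), and with a gate of the top 20% the ratio was 0.656. Mural markers summed to 105 CPM in the arterial gate against 24.9 CPM outside it. Of that list 2 of 7 were at least 2-fold higher in the gate, and Notch3 and Cspg4 were at 0. The part of mural RNA in the values of this gate was not tested.

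Igfbp7 followed Igfbp3 in order at the ends, over a narrower range. It was lowest in the venous gate, 12534 against 20927 CPM (1.67-fold lower), and highest in the Npr3 Vegfc Dkk2 gate, 28995 against 19236 CPM (1.51-fold higher). No blood endothelial gate was 2-fold apart for Igfbp7. The genes parted in the hypoxia and tip gates, where Igfbp7 was at 16740 and 17252 CPM, 0.814 and 0.842 of the rest, and Igfbp3 was above the rest. They parted the other way in the Aplnr Ramp3 gate, where Igfbp3 was at 0.864 and Igfbp7 at 1.11 of the rest.

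Igfbp4 was within 1.5-fold of the remaining cells in all 10 blood endothelial gates, from 461 CPM in the tip gate to 736 CPM in the Aplnr Ramp3 gate. Igfbp5 was at 94.996 against 27.1 CPM in the Aplnr Ramp3 gate (Aplnr, the apelin receptor, and Ramp3, a receptor activity modifying protein), 3.51-fold higher (3.20 to 3.85; background 0.938%). Without the 1% of cells with most Igfbp5 that ratio was 0.952. Igfbp5 was at 6.52 CPM in the tip gate, 3.43 CPM in the capillary gate and 13.9 CPM in the hypoxia gate, against 36.1 to 36.9 CPM in the remaining cells. These gates rest on 49, 21 and 107 UMIs, and shares of genes at least 2-fold lower were 2.43%, 0.506% and 1.48%. The shares are of genes at 50 CPM or more, a level Igfbp5 did not reach there, so they are no like background. The capillary ratio of 0.0939 became 0.518 with scores from thinned cells, and the hypoxia ratio of 0.384 became 0.922 without the 1% of cells with most UMIs.

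In lymphatic endothelium, the gate of Tppp3, a tubulin-binding protein gene, held the most Igfbp3 and Igfbp5 and the least Igfbp7. A lymphatic subset of these same data had already been named by Tppp3 and Igfbp5. The Igfbp5 level of this gate is therefore a description and not independent support. Igfbp3 was at 338 against 86.7 CPM, 3.89-fold higher (3.65 to 4.15), and 53.4% of gate cells had an Igfbp3 UMI after thinning against 15.9%. Igfbp5 was at 1312 against 487 CPM, 2.69-fold higher (2.61 to 2.77), with a UMI in 66.8% of cells against 35.2%. Igfbp7 was at 394 against 1060 CPM, 2.69-fold lower (2.56 to 2.83), and with a gate of the top 20% its ratio was 0.503. In this gate 1.35% of genes were at least 2-fold higher and 1.59% at least 2-fold lower. Along the Tppp3 score Igfbp3 went from 54.0 CPM in the bottom 50% to 405 CPM in the top 5%, Igfbp5 from 377 to 1357 CPM and Igfbp7 from 1146 to 389 CPM. BEC markers summed to 1020 CPM in the gate and 1582 CPM outside it. Much of that sum was Plvap, at 846 of 1531 CPM over all LEC-lineage cells, so it says little of the other BEC markers. The summed mural (11.96 against 20.9 CPM), fibroblast (138 against 174 CPM) and macrophage markers (19.9 against 32.0 CPM) were also lower in the gate. However, 3 of 7 mural and 1 of 6 macrophage markers were at least 2-fold higher there.

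Igfbp5 varied most over the other lymphatic gates. In the gate of Cd24a, a surface glycoprotein gene, and Scn3a, a sodium channel gene, it was at 147 against 606 CPM, 4.13-fold lower (3.81 to 4.48; background 1.02%). In the collecting gate (Lsr, Postn, Foxp2) it was at 1011 against 510 CPM, 1.98-fold higher (1.92 to 2.04; 1.36% of genes reached 2-fold). In the inflamed gate (Cd74, Ccl2, Vcam1 and class II histocompatibility genes) it was at 248 against 603 CPM, 2.43-fold lower (2.30 to 2.58; background 0.455%). Fibroblast markers summed to 564 CPM in the inflamed gate and 119 CPM outside. Of that list 1 of 6 was at least 2-fold higher in the gate, and Col1a1 and Pdgfra were at 0. Mural markers summed to 65.5 and 14.2 CPM, with 2 of 7 at least 2-fold higher and Rgs5, Pdgfrb, Notch3, Myh11 and Des at 0. With only cells free of mural and fibroblast markers the ratio was 0.601, and with a gate of the top 20% 0.750. Collecting-gate cells carried BEC markers at 2347 against 1437 CPM, and their Igfbp5 ratio was 2.01 among cells with at most 1 BEC marker. Over all alternatives that ratio ran from 1.70 to 2.15. The part of blood endothelial RNA in this gate was not tested.

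Igfbp7 was at 1361 against 953 CPM in the inflamed gate (1.43-fold higher) and at 1340 against 964 CPM in the Cd24a Scn3a gate (1.39-fold higher), the gates where Igfbp5 was lowest. In the gate of the stress-associated genes Npy, Ndufa4l2 and Pgf it was at 510 against 1057 CPM, 2.07-fold lower (1.99 to 2.16; background 3.29%). With a gate of the top 20% that ratio was 0.620, with scores from thinned cells 0.512 and with levels from thinned cells 0.554. Macrophage markers summed to 117 CPM in this gate and 20.8 CPM outside, with 1 of 6 at least 2-fold higher and Adgre1 at 0. Their part was not tested. Igfbp4 ranged from 191 CPM in the Cd24a Scn3a gate to 383 CPM in the cycling gate, and no lymphatic gate was 2-fold apart for it.

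Lymphatic Igfbp3 was also higher in the hypoxia gate (Adm, Bnip3, Ankrd37, Slc2a1 and other hypoxia-induced genes), at 230 against 95.5 CPM (2.41-fold, 2.25 to 2.58), and in the Npy Ndufa4l2 Pgf gate, at 228 against 95.7 CPM (2.38-fold, 2.22 to 2.55). The 2 gates shared 235 of 358 cells, and 4.97% and 4.62% of genes were at least 2-fold higher in them. Few cells carried these differences. Along the hypoxia score Igfbp3 stayed between 85.7 and 101 CPM in the 4 lower bands and was at 361 CPM in the top 5%, and without the 1% of cells with most Igfbp3 the ratios were 1.22 and 1.10. The share of cells with a UMI was 25.4% in the hypoxia gate and 19.0% outside it. Macrophage markers summed to 97.7 CPM in the hypoxia gate and 23.1 CPM outside, with 2 of 6 at least 2-fold higher and Adgre1 at 0. Their part was not tested.

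**Figure D3:**
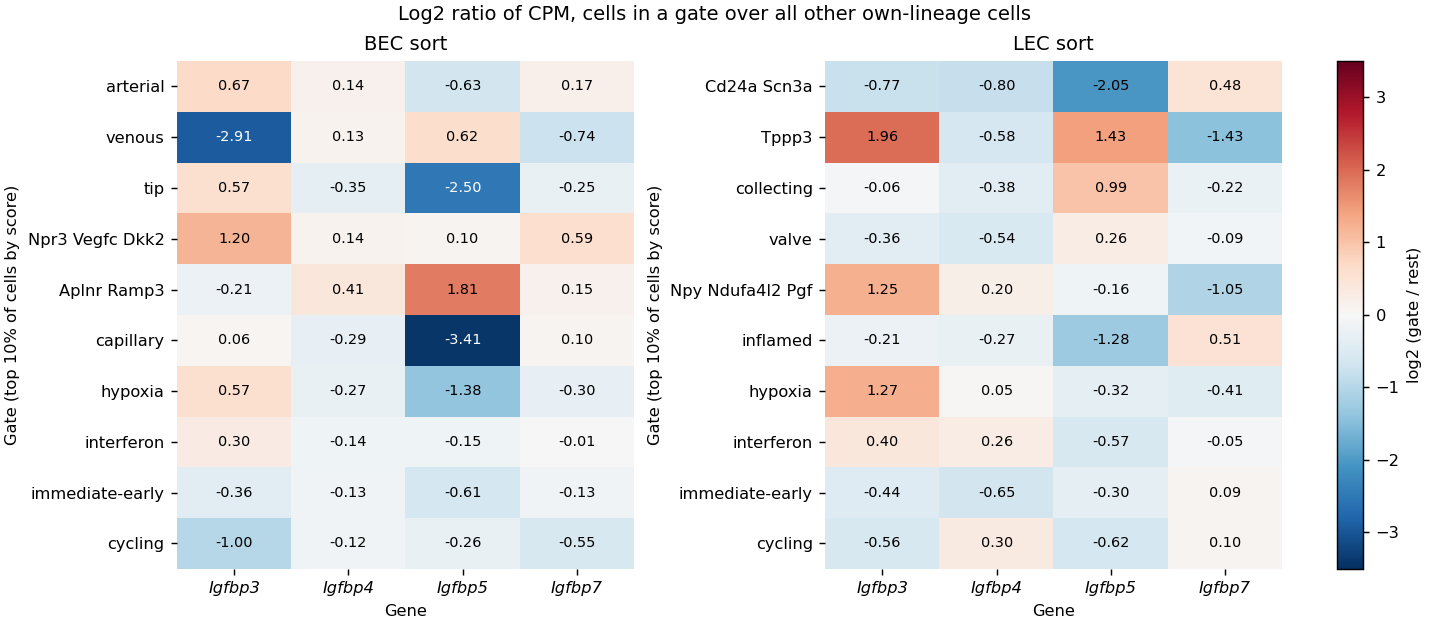
Log2 ratio of CPM between the cells of each gate and all other own-lineage cells, for 10 gates in the BEC sort (left) and 10 in the LEC sort (right); red is higher in the gate and blue lower, and each cell prints its value. The venous gate of blood endothelium is lowest for Igfbp3 (log2 -2.91), and the Tppp3 gate of lymphatic endothelium is highest for Igfbp3 (1.96) and Igfbp5 (1.43) and lowest for Igfbp7 (-1.43).

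**Figure D4:**
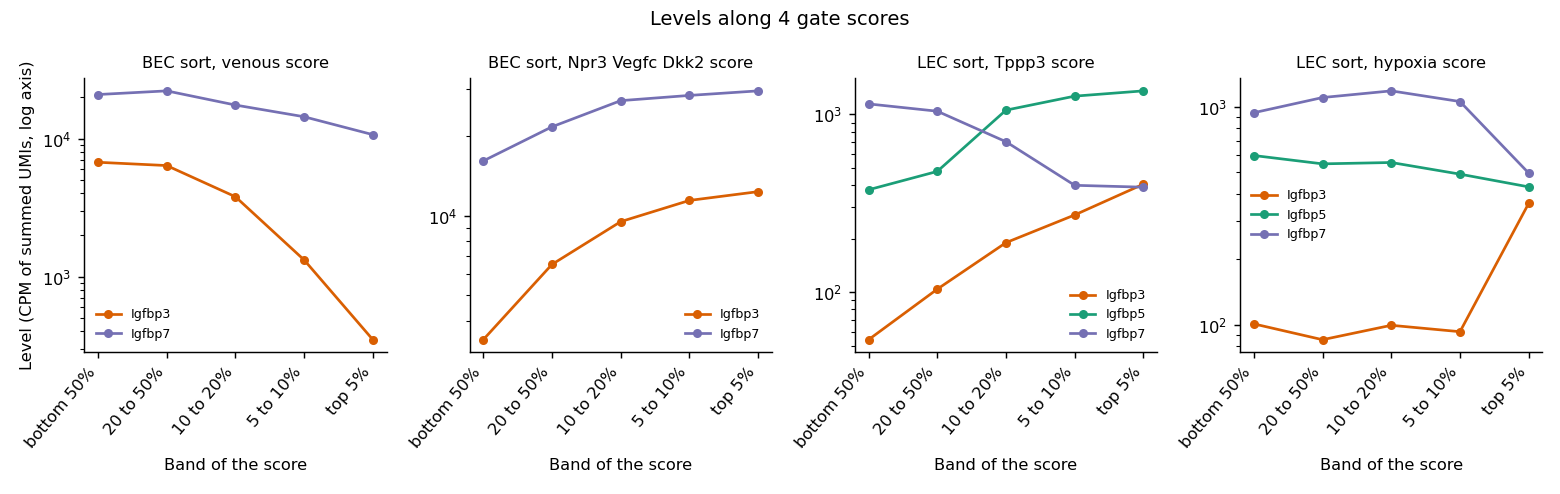
Level (CPM of summed UMIs, log axis) in 5 bands of own-lineage cells, from the bottom 50% to the top 5% of the venous and Npr3 Vegfc Dkk2 scores in BEC and the Tppp3 and hypoxia scores in LEC. Igfbp3 spans 6735 to 349 CPM along the venous score and 54.0 to 405 CPM along the Tppp3 score, whereas along the lymphatic hypoxia score it stays at 85.7 to 101 CPM below the top 5% (361 CPM).

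The genes most like each binding protein were found by Pearson correlation over own-lineage cells of a sort, after thinning, among genes at 50 CPM or more. The coefficients describe cells pooled over the libraries of a sort and thinned to a fixed depth. Over 3115 BEC-lineage cells, Igfbp3 was most like Stc1 (r = 0.64), the secreted inhibitor of Pappa, then Gpihbp1 (0.63), the polyamine enzyme gene Sat1 (0.62), Esm1 (0.61) and the matrix glycoprotein gene Sparc (0.59). The genes most opposite to Igfbp3 were Aplnr (-0.48), Prcp (-0.46) and Fabp4 (-0.45), none of them in the venous list. Igfbp7 was most like Sparc (0.64), the diaphragm protein gene Plvap (0.58), Gpihbp1 (0.55), Igfbp3 (0.49) and the water channel gene Aqp1 (0.46). The 312 cells with most Igfbp3 and the 312 with most Igfbp7 had 93 in common (29.8% of each). Igfbp4 (led by Ctsb, 0.19) and Igfbp5 (led by Ptn, 0.16) reached no coefficient of 0.20 in blood endothelium.

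Over 3577 LEC-lineage cells the coefficients were lower, in sparser counts. Igfbp5 was most like Ptn (0.45), the gene of the growth factor pleiotrophin, and Thbd (0.35), that of thrombomodulin, followed by Htr2b (0.33), Rbp7 (0.31) and Igfbp3 (0.31). Igfbp3 was most like Tppp3 (0.35) and Igfbp5 (0.31). Igfbp4 was led by Ptx3 (0.33), the gene of a secreted pentraxin, and Igfbp7 by Thbs1 (0.32), that of thrombospondin 1. Of the 358 cells with most of each gene, Igfbp3 and Igfbp5 had 117 in common (32.7% of each) and Igfbp5 and Igfbp7 had 4 (1.12% of each).

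The remaining IGF pathway was read from lists of its parts in own-lineage cells, among genes at 10 CPM or more in either sort. Of all 8261 such genes, 11.7% favoured LEC by 2-fold or more and 9.53% favoured BEC, and the median log2 ratio of LEC over BEC was 0.12. Over all sorted cells, 11.7% and 8.76% of such genes did so. Of the other IGF binding protein genes none of 5 reached 10 CPM. They are named here after their values were seen. Igfbp1 had 133 UMIs in BEC-lineage cells and 0 in LEC-lineage cells, at least 28.5-fold higher against a floor of 3 UMIs over the LEC-lineage cells; the lower limit of the exact interval was 22.8-fold. Igfbp2 had 23 and 2 UMIs, Igfbp6 250 and 80, Igfbpl1 5 and 3, and the gene of the circulating complex subunit, Igfals, 7 and 1.

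Among the ligands, Igf1 was higher in lymphatic endothelium, at 34.0 against 8.01 CPM (4.24-fold, 3.84 to 4.68), from 461 and 144 cells with a UMI. Igf2 was at 3.02 CPM in LEC-lineage and 0.306 CPM in BEC-lineage cells, and the insulin genes Ins1 and Ins2 had 0 UMIs. All 3 receptors at 10 CPM or more were higher in blood endothelium between the sorts. The insulin receptor gene Insr was at 111 against 9.66 CPM (11.4-fold, 10.4 to 12.6), the IGF2 clearance receptor gene Igf2r at 25.5 against 9.78 CPM (2.60-fold, 2.34 to 2.90) and Igf1r at 14.4 against 11.8 CPM (1.22-fold, 1.10 to 1.36). Insrr had 0 UMIs. BEC-lineage cells of the LEC sort had Insr at 82.1 CPM (71.5 to 93.7) and Igf1r at 17.3 CPM (12.7 to 23.1). Igf2r was at 9.41 CPM there (6.09 to 13.9), which takes in the LEC-lineage level of 9.78 CPM, so its difference between the sorts was not seen inside the LEC sort.

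Ligand and receptors also varied over the gates, and these genes were read after their values were known. In blood endothelium Igf1 was at 42.3 CPM in the venous gate against 4.48 CPM outside (9.45-fold, 7.97 to 11.2), where Igfbp3 was lowest. In the Npr3 Vegfc Dkk2 gate, where Igfbp3 was highest, Igf1 was at 0.469 against 8.78 CPM from 3 UMIs, Insr at 222 against 99.1 CPM (2.24-fold, 2.11 to 2.37) and Igf2r at 48.0 against 23.1 CPM (2.07-fold, 1.83 to 2.35). Lymphatic Igf1 was at 61.1 against 30.8 CPM in the collecting gate and at 10.7 against 36.4 CPM in the Cd24a Scn3a gate. Igfbp5 had the same directions in these gates, which were picked after the values were seen. Igf1 in the other lymphatic gates, among them Tppp3 and inflamed, is not given here.

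Of 9 measured proteases and inhibitors, 3 favoured BEC by 2-fold or more and 1 favoured LEC (median log2 ratio -0.33). Stc1 was at 573 against 119 CPM, 4.804-fold higher in BEC (4.67 to 4.94). The metalloproteinase inhibitor gene Timp3 was at 696 CPM in LEC-lineage and 235 CPM in BEC-lineage cells, 2.96-fold higher in LEC (2.91 to 3.02). Prss23 and Mmp14, a secreted serine protease and a membrane metalloproteinase, were 1.23-fold and 1.26-fold higher in BEC. Stc1 was at 148 against 617 CPM in the venous gate and 1434 against 485 CPM in the Npr3 Vegfc Dkk2 gate, the same directions as Igfbp3. Stc1 was the gene most correlated with Igfbp3 over these same cells, so these values are no independent support. Its levels in the other blood endothelial gates are not given here. In the lymphatic hypoxia gate Stc1 was at 325 against 95.3 CPM. Pappa itself had 21 UMIs in BEC-lineage cells, 20 of them in the venous gate, and 63 in LEC-lineage cells.

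Of 9 measured partners of these proteins outside IGF binding, 2 favoured each lineage by 2-fold or more (median log2 ratio -0.26). Mmrn2, a matrix protein gene whose product also binds Cd93, was at 485 against 112 CPM, 4.34-fold higher in BEC (4.21 to 4.47). Cd93 was at 524 against 5.26 CPM, but it is a marker by which the lineages were assigned, so this value is partly set by that choice. The fibronectin gene Fn1 was at 530 CPM in LEC-lineage and 74.5 CPM in BEC-lineage cells, 7.11-fold higher in LEC (6.90 to 7.33). Vim and Itgb1, for vimentin and the integrin beta-1 chain, differed by 1.20-fold and 1.07-fold.

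Of 7 measured signal adaptors and kinases, 1 favoured each lineage by 2-fold or more (median log2 ratio -0.51). The adaptor gene Shc1 was at 184 CPM in LEC-lineage and 32.8 CPM in BEC-lineage cells, 5.61-fold higher in LEC (5.35 to 5.88). Grb10, an adaptor that restrains the insulin and IGF receptors, was 1.73-fold higher in BEC, Akt1 was 1.42-fold higher in BEC and Foxo1 differed by 1.09-fold. Of 4 measured genes of the CCN family, which share an IGF-binding-protein-like domain, 2 favoured LEC by 2-fold or more and 1 favoured BEC (median log2 ratio 0.69). Cyr61 was at 1269 CPM in LEC-lineage and 433 CPM in BEC-lineage cells (2.93-fold), Wisp2 at 10.6 and 0.379 CPM, Wisp1 at 0.953 and 31.3 CPM and Ctgf at 12.1 and 13.7 CPM.

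**Figure D5:**
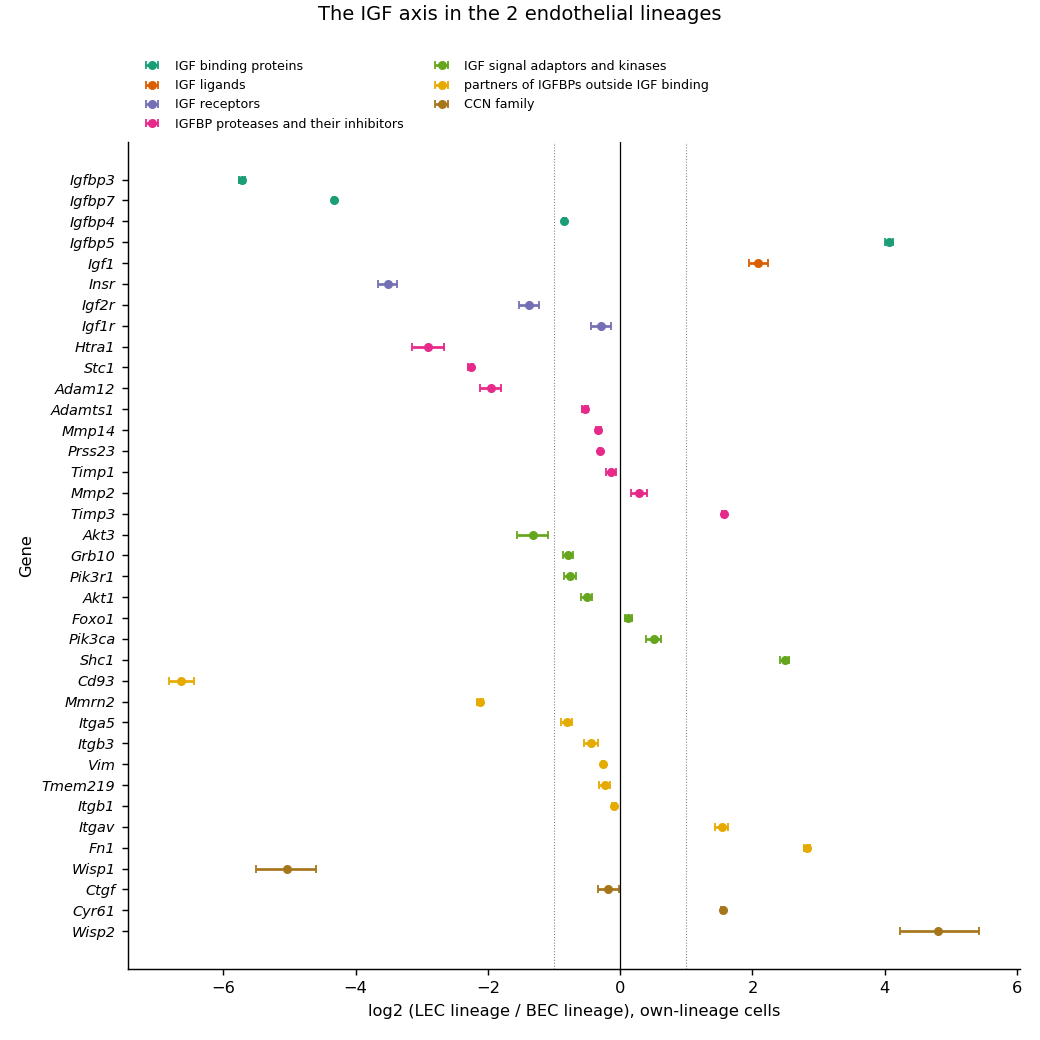
Log2 ratio of LEC-lineage over BEC-lineage CPM, own-lineage cells of each sort, for every pathway gene at 10 CPM or more, coloured by list; bars are 95% counting intervals, dotted lines mark 2-fold and values right of 0 are higher in LEC. Igfbp3 (-5.72) and Igfbp7 (-4.33) lie left with the receptor gene Insr (-3.52), and Igfbp5 (4.07) lies right with the ligand gene Igf1 (2.08).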

How the data were processed

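The authors deposited 1 matrix of unnormalized UMI counts, 28692 genes by 7635 cells, from droplet libraries that read the 3′ end of transcripts. Cell Ranger 2.1.1 and build mm10 were used per the submitters' processing notes. How the authors chose cells was not given in the sources used here, so every cell was kept and doublets were not called. Counts were summed over the cells of a class and scaled to CPM, so the 4 libraries of a sort form 1 sample. Intervals are exact Poisson (levels), conditional binomial (ratios) and Clopper-Pearson (shares) at 95%. They cover counting error only.

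A lineage needed 3 of its markers with a UMI after thinning to 5000 UMIs (seed 1, 0 cells too shallow), a larger share of its list than of the other, and under 2 markers of any other cell type. Gate scores were means of log counts per 10000 divided by each gene's SD. Named genes were the 4 members, every IGF ligand and receptor, the 4 highest of each other pathway list and the 5 genes most correlated with each member; others were chosen after their values were seen. The members, lists and gates were chosen with earlier results of these data known. A minimum of 50 CPM applied to counts of genes and 10 CPM to list members. Tools were Python 3.11.15, numpy 2.4.6, scipy 1.17.1, pandas 2.3.3 and matplotlib 3.10.9. The ratio, thinning and gate steps were tested on simulated data; the lineage step was not. Alternatives were the scaling, thinning, lineage and gate limits, minimum level and the leaving out of cells; those on markers of other lineages, on mural and fibroblast markers and on cells of the other lineage were added after the data were seen.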

Additional observations from a re-analysis of the deposited data

Results flagged for a closer look

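In 3 gates defined by the same genes in both sorts, Igfbp4 or Igfbp7 lay above the remaining cells in one sort and below them in the other, with both counting intervals clear of a ratio of 1. The difference was not tested, since each sort is 1 sample, and all are under 2-fold. In the cycling gate, Igfbp7 was at 0.683 of the remaining cells in BEC and 1.08 in LEC, a log2 difference of 0.66, and Igfbp4 at 0.923 and 1.23, a log2 difference of 0.42. In the interferon gate Igfbp4 was at 0.905 and 1.20, a log2 difference of 0.41, but the LEC ratio was 0.977 in cells with at most 1 marker of the BEC lineage. In the immediate-early gate Igfbp7 was at 0.912 and 1.07, a log2 difference of 0.22, but the LEC ratio was 0.942 with a gate of the top 20%. The ratios of the cycling gate kept their directions in both sorts under the 7 alternatives run.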

How the results depend on the processing

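No alternative reversed any of the 4 ratios between the sorts, in all cells or in own-lineage cells. Values of LEC over BEC that moved beyond the counting interval of the main value follow for all cells. Median-of-ratios size factors gave 0.0443 for Igfbp3, 0.442 for Igfbp4, 12.1 for Igfbp5 and 0.0643 for Igfbp7. Cells thinned to 5000 UMIs gave 0.0410 for Igfbp3, 0.491 for Igfbp4, 15.2 for Igfbp5 and 0.0638 for Igfbp7. Leaving out the 1% of cells with most UMIs of the gene gave 0.0230 for Igfbp3, 0.471 for Igfbp4, 34.2 for Igfbp5 and 0.0533 for Igfbp7. The next values are for own-lineage cells. At least 2 lineage markers gave 0.0196 for Igfbp3. At least 5 gave 0.0168 for Igfbp3, 18.2 for Igfbp5 and 0.0479 for Igfbp7. No marker of another cell type gave 0.0197 for Igfbp3, 21.2 for Igfbp5 and 0.0464 for Igfbp7. Median-of-ratios size factors gave 0.0168 for Igfbp3, 0.493 for Igfbp4, 14.8 for Igfbp5 and 0.0439 for Igfbp7. Cells thinned to 5000 UMIs gave 0.0179 for Igfbp3, 0.512 for Igfbp4, 19.0 for Igfbp5 and 0.0464 for Igfbp7. Leaving out the 1% of cells with most UMIs of the gene gave 0.0144 for Igfbp3, 0.528 for Igfbp4, 45.6 for Igfbp5 and 0.0465 for Igfbp7. At most 1 marker of the other lineage gave 0.0238 for Igfbp3, 0.497 for Igfbp4, 15.8 for Igfbp5 and 0.0393 for Igfbp7. No mural or fibroblast marker gave 0.0195 for Igfbp3, 0.568 for Igfbp4, 20.6 for Igfbp5 and 0.0448 for Igfbp7. Leaving out the cycling gate gave 0.536 for Igfbp4 and 0.0471 for Igfbp7. The last are LEC over BEC lineage within the LEC sort. BEC-lineage cells with at least 5 markers gave 0.0215 for Igfbp3, 0.692 for Igfbp5 and 0.0628 for Igfbp7. Leaving out the 1% of cells with most UMIs of the gene gave 0.0203 for Igfbp3, 1.0002 for Igfbp5 and 0.0728 for Igfbp7. Over all cells, 968 genes favoured LEC by 2-fold or more and 728 favoured BEC at a minimum of 10 CPM, and 2162 and 1186 at 1 CPM, against 351 and 352 at 50 CPM. Size factors, which shift log2 ratios by -0.18, gave 281 and 437. In LEC, 3 pairs of gene and gate were 2-fold apart with gates of the top 20%. The Igfbp5 ratio of the Aplnr Ramp3 gate turned to 0.952 without the 1% of cells with most UMIs. Of the pairs at least 2-fold apart, 6 of 7 in BEC and 8 of 8 in LEC kept their direction under every alternative, and of the other pairs 23 of 33 and 20 of 32. Igfbp5 rests on 2305 UMIs in BEC-lineage cells, and 3 UMIs are 0.0421 CPM in the BEC sort and 0.0506 CPM in the LEC sort. No paired analysis was possible because the columns name no library, and leaving out a library was not run for the same reason.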
